A study of Macaca mulatta with 12 samples.

Results

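The proteasome genes of the rhesus macaque liver were taken as all genes of the deposited transcript table whose symbol starts with PSM, one of the letters A to G, and a digit. The rule found 44 of the 23993 genes in the table. PSMC3IP, a cofactor of DNA recombination, and PSME3IP1, which binds the activator PSME3, meet the rule by their symbols but are no proteasome subunits, so 42 genes are subunits, activators, an inhibitor or assembly chaperones. The symbols PSMA5, PSMB6, PSMB7, PSMB10, PSMD7 and PSMG2 matched no gene of the table and were not analysed here.

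RNA came from liver biopsies of 6 male rhesus monkeys of about 4.6 years, each sampled at 2 time points. The first biopsy (baseline) preceded a 90-day ethanol induction and the second (post-induction) closed it. The daily ethanol intake of every animal was stepped up from 0.5 to 1 and 1.5 g/kg, each step lasting 30 days. All animals then had free access to ethanol for 12 months. At its end 3 of them took 1.5 g/kg daily and are named light drinkers (LD), and 3 took 4 g/kg daily and are named very heavy drinkers (VHD). The classes thus describe drinking after both biopsies, and LD and VHD animals had had the same ethanol at each biopsy. Each of the 4 groups held 3 libraries, 1 per animal, and a library is named here by its biopsy and animal (post-induction LD 2). The baseline biopsy is each animal's own control, and all 6 animals received ethanol.

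The proteasome is the barrel-shaped protease that degrades proteins tagged with ubiquitin. Its 20S core stacks rings of alpha subunits, which gate the channel, on rings of beta subunits, some of which are catalytic. The 19S cap adds ATPases that unfold substrates and non-ATPase subunits that bind and remove ubiquitin. Under interferon, PSMB8, PSMB9 and PSMB10 replace the constitutive catalytic subunits PSMB5, PSMB6 and PSMB7 to form the immunoproteasome, which shapes the peptides shown to T cells. In liver, ethanol metabolism has long been studied for its effect on proteasome activity in hepatocytes, an activity that RNA levels do not measure.

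Library totals ran from 5970033 to 25060718 counts, and the proteasome genes took 0.138 to 0.203% of them. The tissue label was checked with hepatocyte markers: the summed level of ALB, APOA1, SERPINA1, TF and FGB, of 6 names listed, was 200932 to 236200 CPM (the count scaled to library size) in LD baseline, 168006 to 241810 in LD post-induction, 124591 to 238518 in VHD baseline and 134978 to 205673 in VHD post-induction. No listed marker with a row, of any cell type, was at 0 in a library. Over the 12 libraries the summed levels were 81.2 to 247 CPM for 6 of 8 macrophage markers, 4.05 to 9.43 for 4 of 8 T or NK cell markers, 2.28 to 8.82 for 4 of 6 B or plasma cell markers and 5.62 to 32.1 for 4 of 6 neutrophil markers. They were 89.4 to 179 CPM for 5 of 6 sinusoidal endothelial markers, 74.6 to 206 for 5 of 6 stellate cell markers, 22.7 to 83.5 for 3 of 4 cholangiocyte markers and 1.86 to 9.47 for 4 of 6 erythroid markers. Some libraries stood apart from their groups. On the first component of log2 CPM over the tested genes (31.9% of the variance) post-induction LD 2 and LD 3, baseline VHD 2 and post-induction VHD 3 lay between 41.6 and 74.5, post-induction VHD 1 at 6.8 and the other 7 libraries between -63.5 and -6.47. On the second component (21.1%) baseline VHD 3 and post-induction VHD 2 lay at 86.6 and 76.9, post-induction VHD 3 at 26 and the other 9 libraries below 0. In bulk tissue, fewer cells of a type and less RNA per cell cannot be told apart.

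Of the 44 genes, 43 passed the filter on low counts. PSMB11, the beta subunit of thymic epithelium, did not: it had 57 counts over all 12 libraries and 0 to 0.569 CPM, and its count of 0 in baseline VHD 1 allows up to 0.311 CPM (3 counts, for counting error alone). No proteasome gene changed past an adjusted p of 0.05 (edgeR quasi-likelihood test, adjusted over all 18373 genes tested) in any of the 6 comparisons, and the smallest adjusted p of a member was 0.26. In the mean response of LD and VHD animals to the induction, 0 of 43 members were called against 0.267% of all genes, and 4 of 43 had an unadjusted p under 0.05 against 7.91%. In the LD response 0 were called (background 0%) and 2 had an unadjusted p under 0.05 (background 5.7%). In the VHD response both counts were 0, against 0% called and 3.44% of all genes with an unadjusted p under 0.05. For the difference between the responses both counts were 0 too, against 0% and 1.3%. Between VHD and LD at baseline, 0 members were called against 0.00544% of genes, and 1 had an unadjusted p under 0.05 against 1.86%. Between VHD and LD post-induction both counts were 0, against 0% and 2.44%. DESeq2 called 2 members, PSMB9 and PSME3, in the mean response (adjusted p = 0.0138 and 0.0406), where it called 1.64% of all genes, 266 against the 49 of edgeR. In the other 5 comparisons DESeq2 called 0 members, against 0.433% of genes in the LD response, 0.349% in the VHD response and 0.00546% in each of the rest. Limma voom, in which the animal was a random effect, called 0 members in all 6, against 0.321% of genes in the mean response and at most 0.00544% in the others.

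Although no single member passed, most members had values on 1 side of 0 in the LD animals. The median log2 fold change of the 43 members in LD post-induction against baseline was -0.21 with 35 of 43 negative, whereas over all genes tested the median was 0.08 with 43.6% negative. In VHD the members' median was -0.03 with 23 of 43 negative, beside 0.03 and 47.6% for all genes. With upper-quartile scaling the VHD median of the members was 0.01, and that of all genes 0.06, so both moved up and the members stayed below. For the mean response the medians were -0.14 (33 of 43 negative) and 0.07 (42.6% negative), and for the difference of responses, VHD minus LD, 0.18 (32 of 43 positive) and -0.05 (46.2% positive). Without PSMC3IP and PSME3IP1 the medians of all 4 were the same to 2 decimals.

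Animal by animal, the values differed within the classes. In LD 2 and LD 3, 39 and 38 of 43 members were lower after the induction than before, with median log2 changes of -0.68 and -0.60. In LD 1 the order was the opposite, with 32 of 43 members higher and a median of 0.33. VHD 1 had 35 members lower (median -0.28), VHD 3 had 26 lower (-0.16) and VHD 2 had 26 higher (0.21). Over all genes the medians per animal lay between -0.09 and 0.08. Leaving out single biopsies moved every response median. Without post-induction LD 1 the LD median was -0.59, the mean response -0.40, the difference of responses 0.65 and the VHD against LD post-induction median 0.46, while without post-induction LD 2 the same 4 medians were -0.05, -0.06, 0.04 and -0.08. Without post-induction LD 3 they were -0.09, -0.06, 0.03 and -0.05. With any 1 library left out, the medians over all genes lay between 0.01 and 0.10 in LD, 0.01 and 0.08 for the mean response, -0.10 and -0.00 for the difference of responses, and -0.03 and 0.02 post-induction between classes. The VHD response median was 0.06 without baseline VHD 1, 0.03 without post-induction VHD 1 and -0.25 without baseline VHD 2, beside 0.03, 0.02 and -0.02 over all genes.

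**Figure D1:**
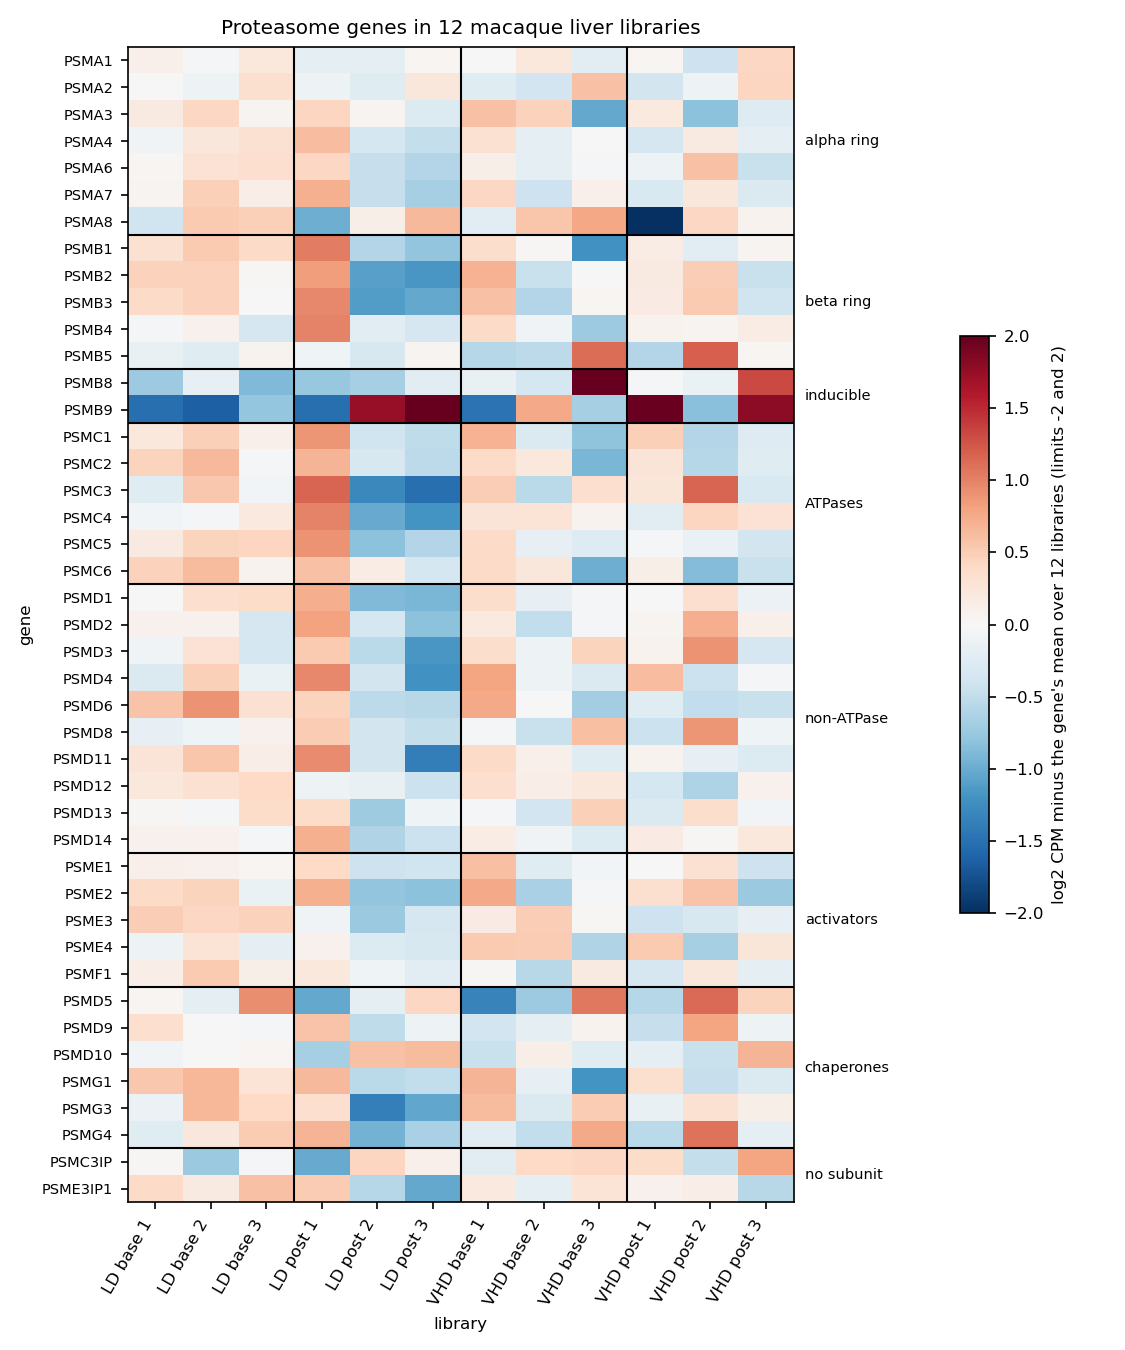
Heat map of the 43 tested proteasome genes (rows, by subcomplex) in 12 liver libraries (columns, by group), coloured by log2 CPM minus the mean of the gene over the libraries, with colours capped at -2 and 2. The library of post-induction LD 1 is high (median deviation of the 41 subunits, activators and chaperones 0.56) and post-induction LD 2 and LD 3 are low (-0.41 and -0.48) across the rings and caps, whereas PSMB9 is high in post-induction LD 2 and 3.

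Across libraries, the median deviation of the 41 tested subunits, activators and chaperones from their own means was highest in post-induction LD 1 (0.56) and baseline VHD 1 (0.35). It was lowest in post-induction LD 3 (-0.48), post-induction LD 2 (-0.41), baseline VHD 2 (-0.17) and post-induction VHD 3 (-0.12). These 4 libraries are the ones that lay between 41.6 and 74.5 on the first component over all tested genes. The constitutive beta ring spanned the widest range of the constitutive groups, from -0.79 in post-induction LD 3 to 0.97 in post-induction LD 1, followed by the ATPases with -0.61 to 0.88. APOA1, the main protein of high-density lipoprotein and a hepatocyte marker, was lowest in the same 4 libraries, at 927, 658, 1048 and 1144 CPM, and 1511 to 5385 CPM in the other 8. SERPINA1, another secreted hepatocyte protein, was 9884 to 11682 CPM in these 4 libraries and 21209 to 42316 CPM in the rest. TF was 7913 to 11534 CPM in the 4 and 12076 to 23590 CPM in the rest. The other hepatocyte markers, ALB and FGB, did not set the 4 apart. ALB was lowest in baseline VHD 3 and post-induction VHD 2, at 80236 and 75121 CPM, against 88636 to 133642 in the 4. FGB was 17802 CPM in post-induction LD 3 but 12750 in post-induction VHD 1. The part that hepatocyte RNA played in the members' levels was not tested.

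The median deviation of the alpha ring stayed between -0.31 and 0.42 over the libraries, a narrower range than that of the constitutive beta ring. All 7 tested alpha genes had negative values in the LD response, between -0.37 and -0.11, and 5 of 7 in the VHD response, between -0.71 and 0.11. PSMA1, an alpha subunit, was 114, 104 and 123 CPM in LD 1, 2 and 3 at baseline and 93.6, 92.8 and 109 CPM after the induction. Its VHD levels were 107, 123 and 91.5 CPM before and 109, 79.1 and 141 CPM after. PSMA1 had the smallest spread of the members, with an SD of log2 CPM of 0.23 over the 12 libraries, smaller than in all but 1.88% of the genes tested. PSMA3, also an alpha subunit, was 49.3, 58.4 and 45.3 CPM in LD baseline and 58.8, 45.1 and 36 CPM in LD post-induction. In VHD it was 65.7, 59.9 and 21.2 CPM at baseline and 50.1, 24.5 and 36.2 CPM post-induction, so baseline VHD 3 held the lowest value and the groups overlapped. PSMA8, which replaces an alpha subunit in the testis, was nearly silent, with 174 counts over the 12 libraries. It was 0.519, 1.2 and 1.15 CPM in LD baseline and 0.265, 0.841 and 1.34 CPM in LD post-induction. In VHD it was 0.621, 1.23 and 1.48 CPM at baseline and 0, 1.1 and 0.812 CPM post-induction, where the count of 0 in VHD 1 allows up to 0.414 CPM. Its VHD response was -0.71 ± 0.79 (adjusted p = 1), the lowest of the members after that of PSMB8 (-0.94), the groups overlapped, and without post-induction VHD 1 the value was -0.25. PSMA2, PSMA4, PSMA6 and PSMA7, the remaining alpha genes with a row, ranged over the libraries from 91.6 to 180, 30.2 to 64.8, 37.8 to 86.1 and 24.2 to 63.2 CPM, and their groups overlapped.

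For PSMA2 the shares of its transcript models differed widely between libraries. The model that led overall (ENSMMUT00000059096) took 100% of the PSMA2 counts in baseline VHD 3 but 29% in post-induction LD 1 and 31.9% in baseline VHD 1, where another model (ENSMMUT00000031576) took 64.8% and 63.3%. Of the 44 genes, 30 had more than 1 model, and in 12 of them the leading model fell under 50% in at least 1 library. How well 76-base reads part such models was not tested, so sums per gene are used below except for PSMB9.

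The constitutive beta subunits varied more. PSMB4, a structural beta subunit, was 82.2, 88.7 and 66.5 CPM in LD baseline and 166, 71.1 and 66 CPM in LD post-induction, and 109, 79.5 and 50.5 then 88, 86.5 and 92.5 CPM in VHD. Its LD value, the largest positive one of the constitutive core (0.35 ± 0.39 SE, adjusted p = 0.952), rested on post-induction LD 1 and was -0.21 without that library. PSMB1, another structural subunit, was 68.9, 80.5 and 72.7 CPM in LD baseline against 71.2, 56.6 and 24 in VHD baseline, and 114, 37 and 32.1 against 62.2, 47.6 and 57.9 post-induction. At baseline VHD 1 lay within the LD range and VHD 2 and VHD 3 below it (VHD minus LD -0.55 ± 0.48, adjusted p = 1). PSMB2 and PSMB3, structural subunits too, ranged from 10.6 to 43.1 and 10.9 to 47 CPM and were the pair of members most alike, with a Pearson r of their log2 CPM of 0.992 over 12 libraries, in each of which both genes share depth and tissue make-up. It was the highest of 903 pairs. PSME2, a subunit of the activator that interferon induces, followed them with r = 0.958 and 0.957.

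PSMB5, which carries the chymotrypsin-like activity of the constitutive core, showed a different pattern. It was 106, 98.8 and 123 CPM in LD baseline and 110, 93.5 and 121 CPM in LD post-induction. In VHD it was 78.9, 81.1 and 255 CPM at baseline and 77.8, 268 and 120 CPM post-induction. Baseline VHD 3 and post-induction VHD 2, from different animals, thus stood above the 77.8 to 123 CPM of the other 10 libraries, and they are the pair set apart on the second component. The same pair had the highest summed macrophage markers (247 and 229 CPM, against 81.2 to 169 in the rest). C1QC gave the largest part of the sums (153 and 141 CPM) and, like MARCO and CD5L, was highest in the pair. The other markers, CD68, CD163 and VSIG4, were not: CD163 was 21.1 and 13.7 CPM in the pair and 24.6 in baseline VHD 2. Whether the shared position of the pair plays a part in the PSMB5 values was not tested. The response of PSMB5 was 0.08 ± 0.35 (adjusted p = 0.982).

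PSMB8, the inducible counterpart of PSMB5, was high in baseline VHD 3 as well, but not in post-induction VHD 2. It was 6.58, 9.93 and 5.89 CPM in LD baseline, 6.46, 6.92 and 9.58 in LD post-induction, 10, 8.68 and 75.6 in VHD baseline and 10.9, 10.1 and 28.2 in VHD post-induction. Both high values came from animal VHD 3, and the other 10 libraries lay between 5.89 and 10.9 CPM. Its VHD against LD value at baseline, 2.07 ± 0.72 on the log2 scale (unadjusted p = 0.0129, adjusted p = 1), was 0.26 without baseline VHD 3. The summed neutrophil markers were also highest in these libraries, at 32.1 and 18.7 CPM against 5.62 to 16.7 in the rest. Different markers led the 2 sums. S100A8 was 15.9 CPM in baseline VHD 3 but 1.13 in post-induction VHD 3, below its median of 1.75, whereas CXCR2 was 5.85 and 10.9 CPM. The part of neutrophils in the PSMB8 values was not tested.

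Since PSMB8 and PSMB5 occupy the same place in the core, their counts were also compared within each library, where scaling cancels. For every 100 counts of PSMB5 there were 6.3, 10.1 and 4.8 counts of PSMB8 in LD baseline and 12.8, 10.7 and 29.7 in VHD baseline. Post-induction, LD had 5.89, 7.43 and 7.94 such counts and VHD 14.1, 3.76 and 23.5. All 3 VHD baseline libraries lay above all 3 LD baseline libraries, a log2 difference of 1.25, with an exact two-sided permutation p of 0.1, the smallest that 3 animals against 3 allow (0.4 adjusted over the 4 tests of this ratio). The post-induction groups overlapped (log2 difference 0.61, exact p = 0.5, adjusted 0.5), since VHD 2 held the lowest ratio after the induction. The ratio's mean response was -0.25 (exact sign-flip p over 6 animals 0.5, adjusted 0.5) and the difference of the responses -0.63 (exact permutation p = 0.5, adjusted 0.5). Without baseline VHD 3 and post-induction VHD 2 the baseline difference was 0.80 and the post-induction difference 1.37.

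PSMB9, the inducible counterpart of PSMB6, varied most of all members, with an SD of log2 CPM of 1.54 over the libraries, larger than in 98.9% of the genes tested. It was 10.9, 9.93 and 18.3 CPM in LD baseline and 10.9, 105 and 136 CPM in LD post-induction. In VHD it was 11.1, 52.9 and 19.7 CPM at baseline and 124, 17.5 and 109 CPM post-induction. The level was higher after the induction in 4 of 6 animals, and LD 1 and VHD 2 had 10.9 and 17.5 CPM then. The mean response was 2.13 ± 0.61 (unadjusted p = 0.00363, adjusted p = 0.26), with 2.68 ± 0.88 in LD (adjusted p = 0.856) and 1.58 ± 0.84 in VHD (adjusted p = 1). The difference of the responses was -1.10 ± 1.17, VHD minus LD (adjusted p = 1).

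The high PSMB9 values came mainly from 1 of its transcript models. On chromosome 4 of build Mmul_8.0.1, plus strand, the shorter model (ENSMMUT00000015822) spans 33670192 to 33675661 and the longer one (ENSMMUT00000064248) spans 33670270 to 33697457. The longer model had 93.1 and 70.9 CPM in post-induction LD 2 and LD 3, 35.4 in baseline VHD 2, and 114 and 98.7 in post-induction VHD 1 and VHD 3, but 0 to 4.05 CPM in the other 7 libraries. These 5 libraries are the ones with the highest scores on the first component. The shorter model lay between 5.88 and 19.7 CPM in 11 libraries and at 64.8 CPM in post-induction LD 3. From the shorter model alone the mean response was 0.56 (adjusted p = 0.82) and the VHD response -0.23, and from the longer model alone they were 3.66 (adjusted p = 0.583) and 2.45. This split was tried after the values had been seen. STAT2, a transducer of interferon signals, was 25.7, 17.4, 16.6 and 17.1 CPM in post-induction LD 2 and LD 3, baseline VHD 2 and post-induction VHD 3, 8.69 in post-induction VHD 1 and 3.12 to 7.15 in the other libraries.

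**Figure D2:**
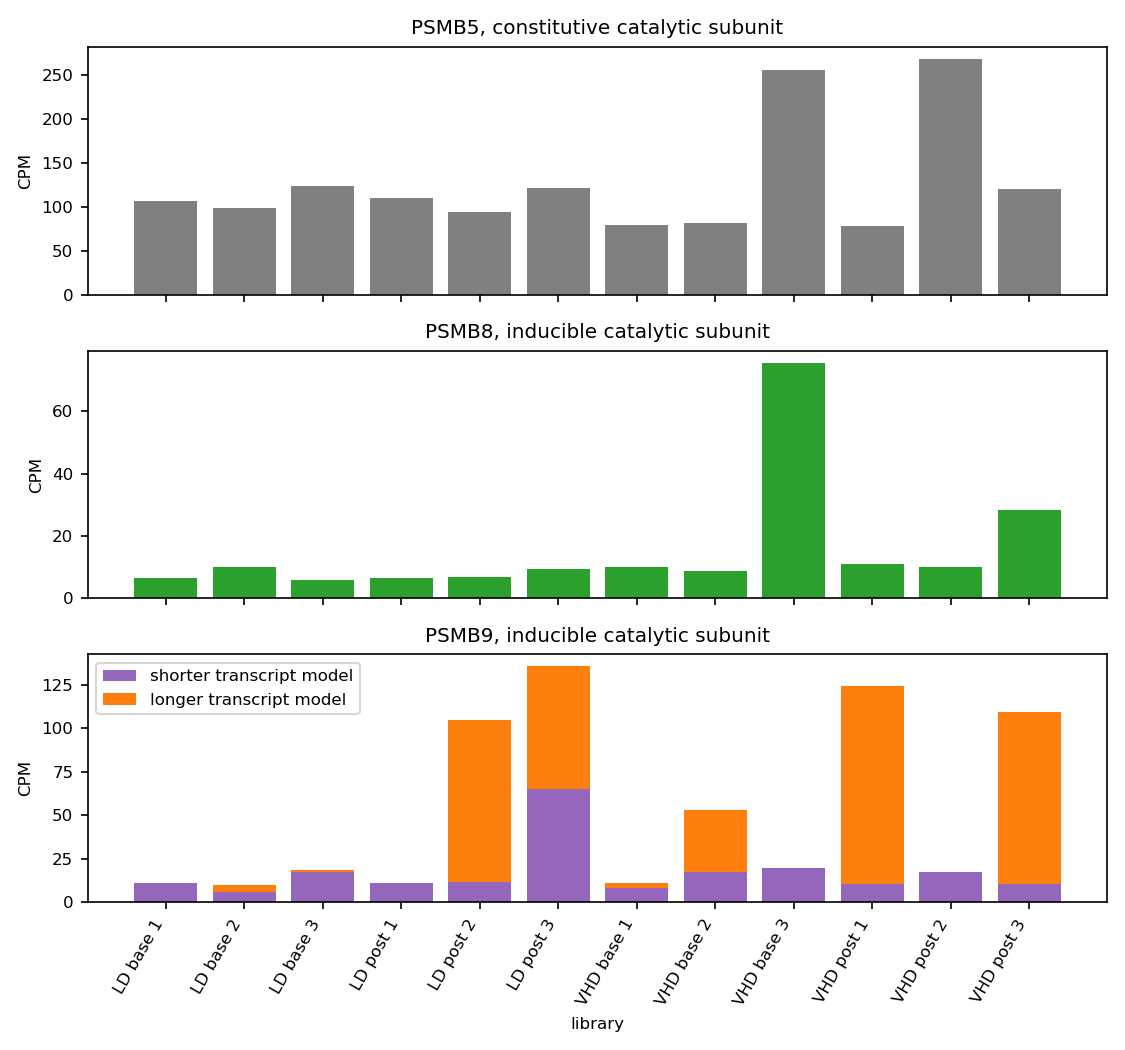
Bars give the level in CPM of PSMB5, PSMB8 and PSMB9 in each of the 12 libraries, with PSMB9 split into its shorter and longer transcript models. PSMB5 is high in baseline VHD 3 and post-induction VHD 2 (255 and 268 CPM), PSMB8 in the 2 VHD 3 libraries (75.6 and 28.2 CPM), and the longer PSMB9 model in 5 libraries (35.4 to 114 CPM, against 0 to 4.05 in the other 7).

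In the 19S base, 6 of 6 ATPase genes had negative values in the LD response (-0.33 to -0.08) and 5 of 6 in VHD (-0.35 to 0.34). PSMC4 was 22.8, 23.3 and 27.2 CPM in LD baseline and 47.2, 11.7 and 10.2 CPM in LD post-induction, so that LD post-induction held both the highest and the lowest levels. In VHD it was 28.3, 28.5 and 24.8 CPM at baseline and 20.3, 31.8 and 29 CPM post-induction. PSMC6 was 7.27, 8.22 and 5.46 then 7.95, 5.75 and 4.03 CPM in LD, and 6.83, 6.09 and 2.52 then 5.66, 2.74 and 3.74 CPM in VHD. It had the lowest VHD against LD value of the members post-induction, -0.57 ± 0.44 (adjusted p = 0.999). PSMC1, PSMC2, PSMC3 and PSMC5 ranged from 15.2 to 49.2, 22.7 to 68.4, 6.04 to 40.1 and 32.5 to 107 CPM. In PSMC1, PSMC2 and PSMC5 the highest of the 12 levels was in post-induction LD 1. In PSMC3 that library and post-induction VHD 2 both had 40.1 CPM.

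Of the 10 non-ATPase cap genes tested, 7 had negative values in the mean response. PSMD12, a scaffold subunit of the lid (chromosome 16, 60837252 to 60861818, minus strand), was 35.5, 38 and 40.5 CPM in LD baseline and 28.6, 27.7 and 22.8 CPM in LD post-induction. In VHD it was 38.9, 33.7 and 35.6 CPM before and 24, 20 and 32.5 CPM after. All 6 post-induction values were below all 6 baseline values, and the mean response was -0.51 ± 0.19 (unadjusted p = 0.0185, adjusted p = 0.475). PSMD6, another lid scaffold (chromosome 2, 78049051 to 78061762, plus strand), was 54.5, 68.5 and 45.3 then 50, 25.6 and 24.8 CPM in LD, and 62.2, 36.5 and 22.7 then 30.9, 26.1 and 26.8 CPM in VHD. It was lower in 5 of 6 animals and the exception was VHD 3, whose baseline value was already the lowest of the 12 (mean response -0.64 ± 0.28, adjusted p = 0.582). Without baseline VHD 1 the PSMD6 mean response was -0.41.

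PSMD4, a ubiquitin receptor, was 13.7, 23.5 and 15.2 then 32.9, 12.9 and 7.09 CPM in LD, and 29.2, 15.6 and 13.7 then 25.7, 12.4 and 16.2 CPM in VHD. PSMD11, a lid scaffold, was 14.9, 18.3 and 13.6 then 24, 9.57 and 4.6 CPM in LD, and 16.2, 13.3 and 10.4 then 13, 11.1 and 10.2 CPM in VHD. PSMD14, which removes ubiquitin from substrates at the cap, was 27.3, 27.2 and 24.9 then 42.1, 16.9 and 19 CPM in LD, and 28.5, 24.4 and 21.1 then 28.8, 26.1 and 29.6 CPM in VHD. In all 3 genes post-induction LD 1 was the highest library and 1 of the other LD post-induction libraries the lowest, so the spread within that group covered the other groups. PSMD1 and PSMD2, large scaffold subunits of the base, ranged from 22.5 to 71.2 and 46.4 to 143 CPM. PSMD3, PSMD8 and PSMD13, subunits of the lid, ranged from 28.8 to 121, 38 to 97.7 and 32.8 to 75.6 CPM. The PSMD2 gene overlaps EIF2B5 on the same strand, so reads there may be shared even where the counting was by strand. Another 10 members overlap a gene on the opposite strand, and reads there may be shared where the counting was not by strand.

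Among the activators, PSME3 (chromosome 16, 48689979 to 48700908, plus strand) had the smallest unadjusted p of its group. PSME3 forms a nuclear activator cap that works without ubiquitin. It was 54, 51.2 and 52.6 CPM in LD baseline and 36.4, 22.9 and 30.4 CPM in LD post-induction, and 42.7, 53.7 and 39.1 then 28.6, 30.6 and 34.2 CPM in VHD. The highest post-induction value, 36.4, was below the lowest baseline value, 39.1. The mean response was -0.68 ± 0.19, a level 1.6-fold lower (unadjusted p = 0.00363, adjusted p = 0.26), with -0.82 ± 0.27 in LD (adjusted p = 0.856). Leaving out any 1 library kept the mean response between -0.76 and -0.60. PSMD12 and PSME3 were the 2 of 43 members whose 6 post-induction values were all below the 6 baseline values, against 0.849% of all genes tested, and 0 members had all 6 above, against 0.142%.

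**Figure D3:**
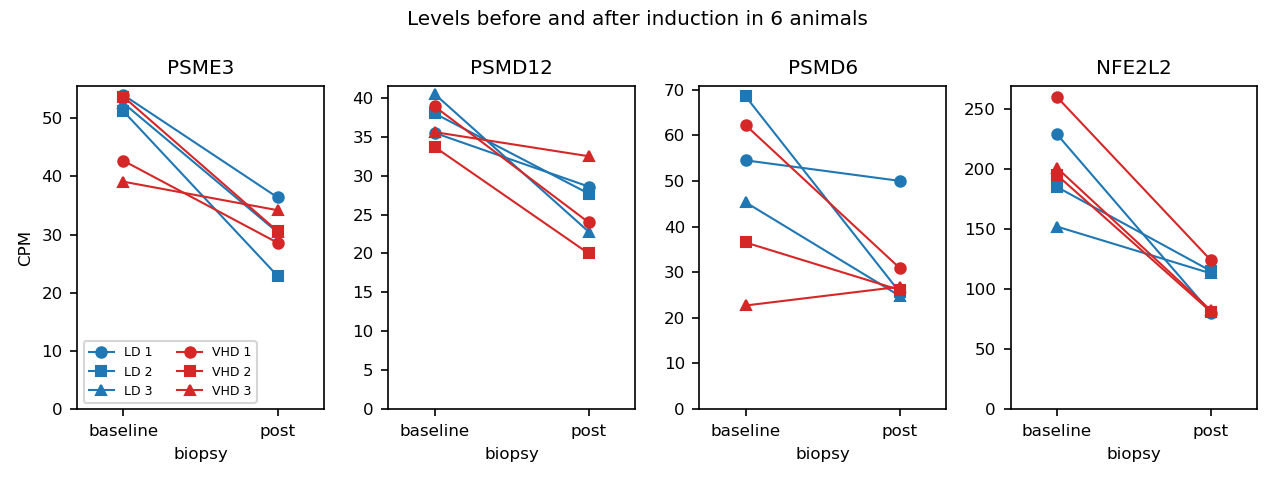
Lines join the baseline and post-induction levels in CPM of each animal (blue for LD, red for VHD, markers for animals 1 to 3) for PSME3, PSMD12, PSMD6 and the transcription factor gene NFE2L2. In PSME3, PSMD12 and NFE2L2 all 6 lines go down and the time points do not overlap, while in PSMD6 the line of VHD 3 goes from 22.7 to 26.8 CPM.

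The other activators did not share that pattern. PSME1, which forms the interferon-inducible activator with PSME2, was 77.5, 76 and 73.6 then 95.1, 54.2 and 54.6 CPM in LD, and 109, 61.1 and 69.1 then 71.3, 88.6 and 54.2 CPM in VHD. PSME2 was 59.7, 62.3 and 41.9 then 75, 26.3 and 25.8 CPM in LD, and 77.6, 29 and 45 then 57, 68.2 and 27.2 CPM in VHD. Both were thus low in post-induction LD 2 and LD 3 and post-induction VHD 3, where PSMB9 was high, but not in post-induction VHD 1, where PSMB9 was high too. PSME4, the nuclear activator PA200, was 21.3, 27.6 and 19.8 then 24.2, 18.7 and 18.1 CPM in LD, and 32.7, 32.5 and 15 then 33, 14.3 and 26.9 CPM in VHD. PSMF1, an inhibitor of the proteasome, was 71.5, 93.6 and 70.4 then 75.1, 61.2 and 55.7 CPM in LD, and 66.4, 44.1 and 73.8 then 51.5, 76.1 and 57.3 CPM in VHD. The groups overlapped in PSME1, PSME2, PSME4 and PSMF1.

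Assembly chaperones help build the core and the base and leave the finished particle. PSMG1, a chaperone of the alpha ring, was 36.5, 39.8 and 30 then 39.3, 17.1 and 17.7 CPM in LD, and 40.2, 22.1 and 10.7 then 31, 18.1 and 20.4 CPM in VHD. PSMG3, also a core chaperone, was 12.8, 22.1 and 18.3 then 17.5, 5.24 and 6.61 CPM in LD, and 21.6, 11.3 and 19.7 then 12.4, 17.1 and 15.1 CPM in VHD. Its LD value of -0.86 ± 0.44 (adjusted p = 0.856) was the lowest of the members, and LD 1 went the other way from LD 2 and LD 3. PSMD10 (gankyrin), a chaperone of the base, was 12.8, 13.2 and 13.7 then 8.27, 20.2 and 20.8 CPM in LD, and 9.73, 14.4 and 11.2 then 11.6, 9.69 and 21.4 CPM in VHD. After PSMB9 it had the largest positive mean response, 0.29 ± 0.28 (adjusted p = 0.86), and it was high in post-induction LD 2 and LD 3, where most subunits were low. PSMD5, another base chaperone, was 4.15, 3.48 and 7.9 then 1.85, 3.49 and 5.46 CPM in LD, and 1.45, 2.34 and 8.66 then 2.62, 9.09 and 5.59 CPM in VHD. It had the largest positive difference of responses (1.01 ± 0.93, adjusted p = 1), and its VHD value of 0.46 was -0.02 without post-induction VHD 2. PSMD9 and PSMG4, the remaining chaperones, ranged from 5.82 to 14.7 and 2.13 to 9.47 CPM, and the non-subunits PSMC3IP and PSME3IP1 from 0.795 to 3.38 and 3.07 to 9.85 CPM.

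**Figure D4:**
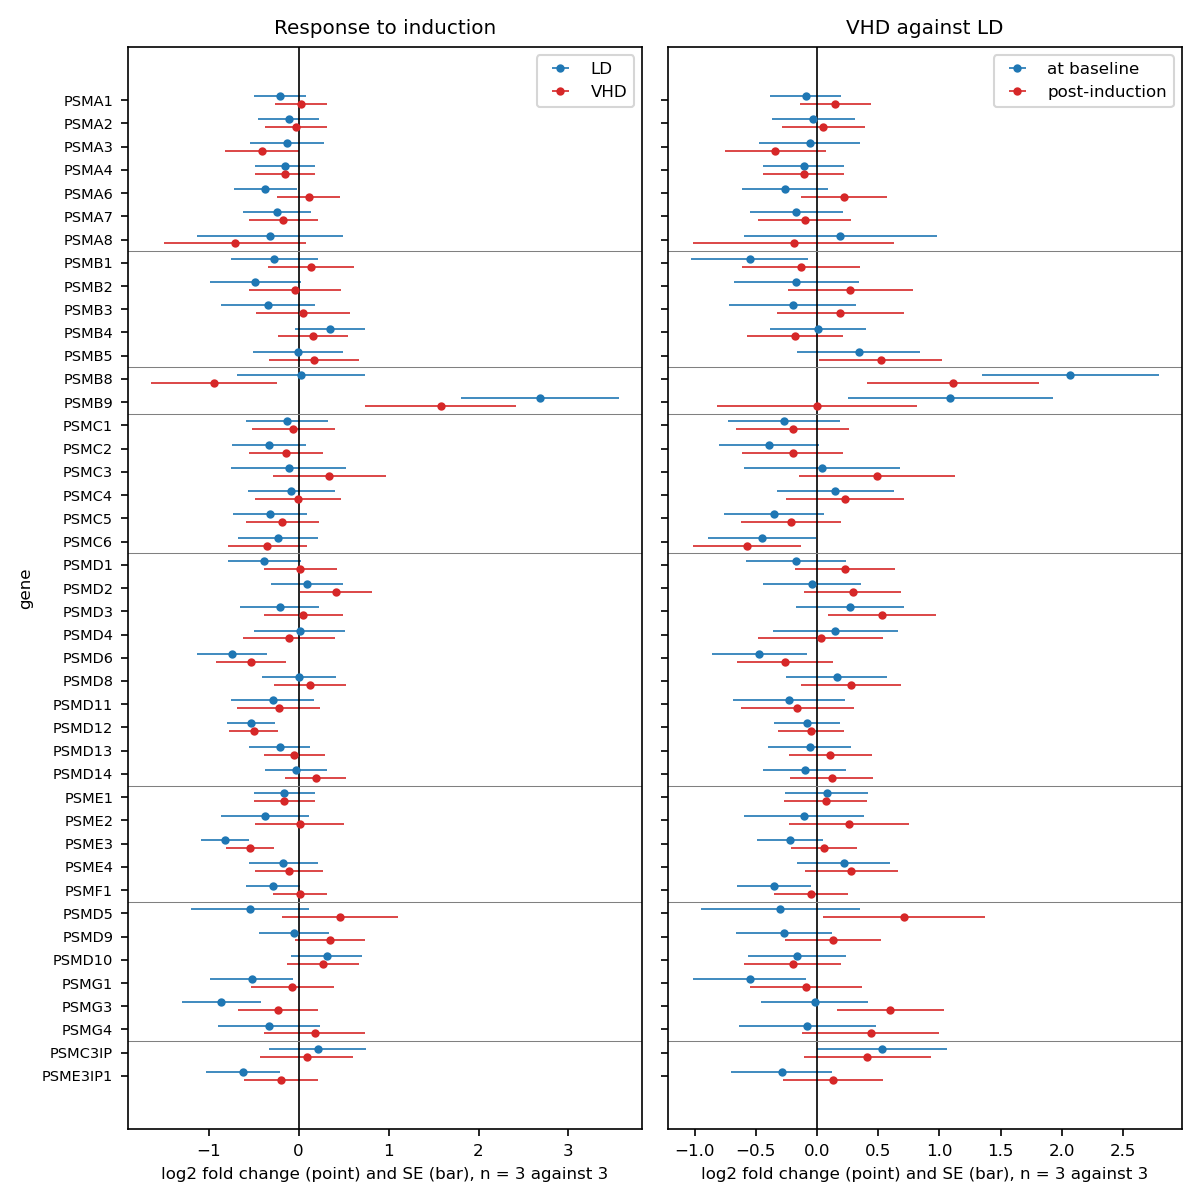
Points are log2 fold changes from the quasi-likelihood fit and bars their SE for the 43 tested genes, with the response to induction in LD and VHD (left) and the class values, VHD minus LD, before and after it (right), 3 against 3 libraries each. Most LD points lie left of 0 (35 of 43), PSMB9 has the largest response values (2.68 in LD, 1.58 in VHD), and PSMB8 the largest class value at baseline (2.07).

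Between the classes, the members' median at baseline was -0.10 in VHD against LD with 30 of 43 negative, beside 0.07 and 43.4% for all genes. Post-induction it was 0.11 with 26 of 43 positive, beside -0.01 and 49.6%. Without baseline VHD 2 the baseline median was 0.01, beside 0.04 for all genes. Without post-induction VHD 2 the post-induction median was -0.02, beside -0.03 for all genes.

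The genes around the proteasome were followed through 5 lists, of which 59 genes were tested. SQSTM1, the receptor that carries ubiquitinated proteins to autophagy, fell in the mean response. It was the single listed gene that the edgeR test called in any comparison. Its levels were 471, 495 and 477 then 209, 181 and 206 CPM in LD, and 704, 360 and 480 then 189, 242 and 127 CPM in VHD. It was lower in 6 of 6 animals, by 1.37 on the log2 scale or 2.59-fold (log2 fold change -1.37 ± 0.24, adjusted p = 0.0357). With a term for the animal (replicate block) the value was the same but the adjusted p was 0.106. That setting called 4 of all genes in the mean response, against 49 in the main fit. The call of SQSTM1 held without post-induction LD 1, baseline VHD 2 or post-induction VHD 2, where 31 to 71 of all genes were called. It was lost without any 1 of the other 9 libraries (adjusted p = 0.0602 to 0.146, log2 fold change -1.45 to -1.23), where 0 to 40 were called. NFE2L2, the oxidative stress regulator that can raise proteasome genes, was 229, 185 and 152 then 80.3, 115 and 113 CPM in LD, and 260, 195 and 201 then 124, 81.1 and 82.2 CPM in VHD. Its time points did not overlap either, with a mean response of -1.03 ± 0.22 that missed the threshold (adjusted p = 0.0887, or 0.000463 with DESeq2). NFE2L1, the factor that restores proteasome genes when the protease is blocked, was 71.6 to 144 CPM over the 12 libraries with a mean response of 0.06 ± 0.21 (adjusted p = 0.978), and it is named here after its value was seen. STAT3, a cytokine-activated factor, was 88.4, 114 and 213 then 58.6, 61 and 104 CPM in LD, and 161, 236 and 169 then 62.4, 79.2 and 60.8 CPM in VHD. Its VHD response was -1.49 ± 0.38 (adjusted p = 0.658).

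List by list, the mean response was negative in 8 of 12 partners and assembly factors, 6 of 13 regulators of proteasome genes, 7 of 16 genes of ubiquitin supply and shuttling, 3 of 11 genes of antigen processing and interferon control, and 3 of 7 genes of the proteotoxic stress response. Their median log2 fold changes were -0.11, 0.01, 0.03, 0.17 and 0.01, beside 0.07 over all genes tested. In the mean response 1 of the 59 genes passed the test lower and 0 higher, beside 0.267% of all genes, with 8 lower and 1 higher at an unadjusted p under 0.05, beside 7.91%. In the other 5 comparisons 0 passed. At an unadjusted p under 0.05 there were 4 lower and 1 higher in the LD response (5.7% of all genes), 3 lower in the VHD response (3.44%) and 1 lower in the difference of responses (1.3%). Between the classes there were 0 at baseline (1.86%), and 2 lower and 1 higher post-induction (2.44%). MAFK, a partner of NFE2L1 and NFE2L2 on DNA, and FOXO4, a transcription factor linked to PSMD11, were 2 of those post-induction, at -1.46 ± 0.51 and 1.34 ± 0.50 for VHD minus LD (adjusted p = 0.999 for both). MAFK was 7.52, 30 and 21.9 CPM in LD post-induction and 8.28, 8.49 and 4.87 CPM in VHD post-induction, so post-induction LD 1 lay among the VHD values. FOXO4 was 6.89, 7.37 and 7.67 CPM in LD post-induction and 32, 11.6 and 12.2 CPM in VHD post-induction, with no overlap. PAAF1, which binds ATPases of the 19S cap, and PITHD1 had the smallest unadjusted p of the lists at baseline, at -0.60 ± 0.36 and -0.39 ± 0.27 (adjusted p = 1 for both). The post-induction LD 2 and LD 3 libraries, low in most subunits, were also low in VCP, an unfoldase that feeds the proteasome, at 30.1 and 28.2 CPM against 71.9 in post-induction LD 1. Not all genes of ubiquitin supply and shuttling were low there. RAD23B was 98.5 and 90.3 CPM in these 2 libraries against 51.5 in post-induction LD 1, and UBA6 5.88 and 9.87 against 1.22. VCP, RAD23B and UBA6 are named here after their values were seen.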

How the data were processed

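The authors deposited expected counts per Ensembl transcript for 12 libraries, made per the labels' protocols from 500 ng RNA (RIN over 8.5) and read as 76 bases from 1 end. The submitters' processing notes name the build Mmul_8.0.1 and the tools BWA, Bowtie and Partek. Their versions and roles, the annotation release and the use of strand are not given in the sources of this work. The 40611 transcripts, 100 of them of members, were summed into 23993 genes and rounded, of which 15471 had a symbol in the name table used. Transcript values were whole in 40.1% of cells. A start position may differ by 1 base.

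Genes were filtered with filterByExpr by group (18373 left) and tested with edgeR 4.0.16 under R 4.3.3, using TMM scaling, a robust quasi-likelihood fit of 4 group means over 12 libraries, and Benjamini-Hochberg adjustment over all genes with a threshold of 0.05. CPM are scaled by TMM. Changes per animal are of log2(CPM + 0.25). An SE is the absolute log2 fold change over the root of its F statistic. The PSMB8/PSMB5 ratio, of counts plus 0.5, was tested exactly. Ratios of PSMB9 and PSMB10 to their counterparts could not be formed, so the family held 4 tests. Per-library values were given for a panel of catalytic subunits and representatives of each subcomplex and for the 2 members with the largest rise and fall in each comparison. PSMD12 was added after its values were seen. Members, panel and lists were chosen with earlier results of these data known. Among the lists' names, POMP, ADRM1, ZFAND5, DDI2, TAP1, TAP2, B2M, HSPA1A, HSPB1 and HSP90AA1 were not analysed here, and some single-gene values of the lists are not reported here. Same-numbered libraries come from the same animal by their titles. The deviations of an animal's 2 libraries from their group means correlated at 0.0764, -0.0165 and 0.374 in LD 1, 2 and 3 and at 0.424, -0.361 and 0.103 in VHD 1, 2 and 3 over the tested genes. Alternatives were DESeq2 1.42.0, RLE and upper-quartile factors, other filters, a term for the animal (replicate block), limma 3.58.1 voom, the compared groups alone, each library left out, and baseline VHD 3 and post-induction VHD 2 left out together. Whether the call of SQSTM1 held was followed through the same settings. The script was tested on simulated data.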

Additional observations from a re-analysis of the deposited data

How the results depend on the processing

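Members called stayed at 0 in every comparison under all settings run except DESeq2, which called 2 in the mean response. There it called 266 of all genes (1.64%) against 49 (0.267%) with edgeR. With 1 library left out, 0 to 71 of all genes were called in the mean response. Where few genes passed at all, a count of 0 members carries little information. For the named genes, 546 results kept direction and side of the threshold, 7 turned direction and 3 (PSMB9, PSME3 and NFE2L2 under DESeq2) newly passed it. The other 10 are SQSTM1, whose call was lost with the replicate block and without some single libraries. Its value lay at -1.54 to -1.23 over all libraries left out singly, including those without which the call held. With a replicate block for the animal 0 members were called, but only 4 of all genes were called in the mean response and 0 in the other responses. The member medians were -0.34 in LD, -0.00 in VHD, -0.20 for the mean response and 0.31 for the difference of responses. Over all genes these medians were 0.05, 0.03, 0.05 and -0.01. Between the classes, same-numbered libraries come from different animals, so a block on the number pairs nothing in the design. It too called 0 members, beside 1 of all genes at baseline and 0 post-induction. Among the named genes, the block changed no call beyond SQSTM1. Leaving out single libraries gave a median difference of responses of 0.03 to 0.65, the highest without post-induction LD 1. It moved the PSMB4 value in LD over -0.21 to 0.58, and in VHD the values of PSMB8 over -1.63 to 0.78 and of PSMD5 over -0.02 to 1.61. The PSMB8 difference of responses moved over -1.58 to 0.83. Without baseline VHD 3 and post-induction VHD 2 together, PSMB8 was 1.07 in VHD and 1.05 for the difference, and the PSMB8/PSMB5 ratio, for which the pairs of VHD 2 and VHD 3 are lost, 0.10 for the mean response and 0.08 for the difference. The PSMB9 response in VHD was -0.23 from its shorter model alone. The cause of these turns was not tested. With upper-quartile factors the median mean response was -0.08 in the members and 0.13 over all genes, both 0.06 above the values with TMM. The total of 5970033 counts in baseline LD 1 limits the precision of genes near 1 CPM, such as PSMA8 with 0.519 CPM there. With 3 animals a class, the exact test of a class difference cannot go below 0.1.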
